A study of Mus musculus with 8 samples.

Results

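Nestin, vimentin and 8 further genes used as marks of the neuroepithelium and of radial glia were followed across mouse anterior neural progenitor cells with and without a poised enhancer of Lhx5. The 10 genes are Nes, Vim, Fabp7, Prom1, Msi1, Msi2, Slc1a3, Pou3f1, Pou3f3 and Pou3f4. They were taken by symbol from a table of 46406 genes, and all 10 reached the mean of 1 FPKM (fragments per kilobase of gene, scaled to the mapped fragments of the library) that 14521 genes passed for testing. The cells were grown from E14 mouse embryonic stem cells over 5 days in N2B27 medium, with 10 ng/ml bFgf for the first 3 days and 5 μM of the WNT inhibitor Xav939 from day 2. Poly(A) RNA of 8 cultures was sequenced. In 4 libraries the element named PE Lhx5(-109) had been deleted from both alleles with Cas9 and guide pairs: 2 libraries are of clone 2 and 2 of clone 1, each of them a single clonal line. The other 4 libraries are wild type (WT) E14 cells, which carry no clone label, so that the deletion cannot be told apart from the derivation of clones. Lhx5 stood at 1.90 and 1.26 FPKM in clone 2, 1.24 and 0.854 FPKM in clone 1 and 15.0 to 17.5 FPKM in WT.

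The neuroepithelium is the dividing, polarised sheet of the neural tube, and its cells become radial glia as neurogenesis begins. Nestin and vimentin build the intermediate filaments of these cells, prominin-1 marks their apical membrane, and the brain lipid-binding protein Fabp7 and the glutamate transporter Slc1a3 appear as radial glial properties are gained. Musashi proteins bind progenitor mRNAs, and class III POU factors act in neural induction and in the forebrain progenitor programme, in part through an enhancer of Nes.

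The libraries were alike in their summed FPKM, 518491 to 528726, and in the number of genes at or above 1 FPKM, 13983 to 14338. Clone 1 replicate 2 stood apart: its non-polyadenylated RNAs Rn7sk, Rpph1 and Rmrp summed to 734 FPKM, against 12.6 to 58.8 FPKM in the other libraries. All 6 markers fixed for neural progenitors (Sox1, Sox2, Sox3, Pax6, Hes5 and Cdh2) were expressed, summing to 293 to 307 FPKM in clone 2, 266 to 287 FPKM in clone 1 and 302 to 327 FPKM in WT. Sox2 alone stood at 119 to 140 FPKM. By limma's test, given below, 2 rose (Sox1 and Cdh2) and 1 fell (Pax6) in clone 2, where 7.06% of all genes rose and 6.96% fell. In clone 1, 0 rose and 3 fell, Sox1 and Cdh2 among them, where 4.16% of all genes rose and 11.4% fell. Of the 6 astrocyte markers, Gfap and S100b stayed below 1 FPKM in every library, as did all 7 mesoderm and endoderm markers. Aqp4, Aldh1l1, Aldoc and Slc1a2 did not, and Aldoc was the highest, at 4.82 to 35.5 FPKM. Pluripotency markers were also present, and moved with the lines: the 6 summed to 71.8 to 82.2 FPKM in clone 2, 171 to 191 FPKM in clone 1 and 97.9 to 124 FPKM in WT. Their part in the results below was not tested.

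In WT cells the 10 genes spanned a wide range of levels. Msi1 was highest, at 121 ± 3.27 FPKM (SD, n = 4), above 95.3% of the genes tested. Msi2 (41.1 ± 2.79 FPKM), Prom1 (38.8 ± 0.632 FPKM) and Vim (35.0 ± 1.09 FPKM) followed, and the ranges of Msi2 and Prom1 overlapped. Nes stood at 23.4 ± 1.42 FPKM and Pou3f1 at 12.3 ± 1.01 FPKM. The genes that mark radial glia or the later POU factors were low: Slc1a3 at 2.89 ± 0.108 FPKM, Pou3f3 at 2.68 ± 0.500 FPKM, Fabp7 at 2.03 ± 0.664 FPKM and Pou3f4 at 1.69 ± 0.367 FPKM. Among these 4, each overlapped its neighbour in the order. Of the 10 genes, 3 of these 4 were the most variable in WT, with coefficients of variation of 32.7% for Fabp7, 21.7% for Pou3f4 and 18.7% for Pou3f3. Slc1a3 varied by 3.72%, less than Pou3f1 at 8.18%, Msi2 at 6.80% and Nes at 6.07%.

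**Figure D1:**
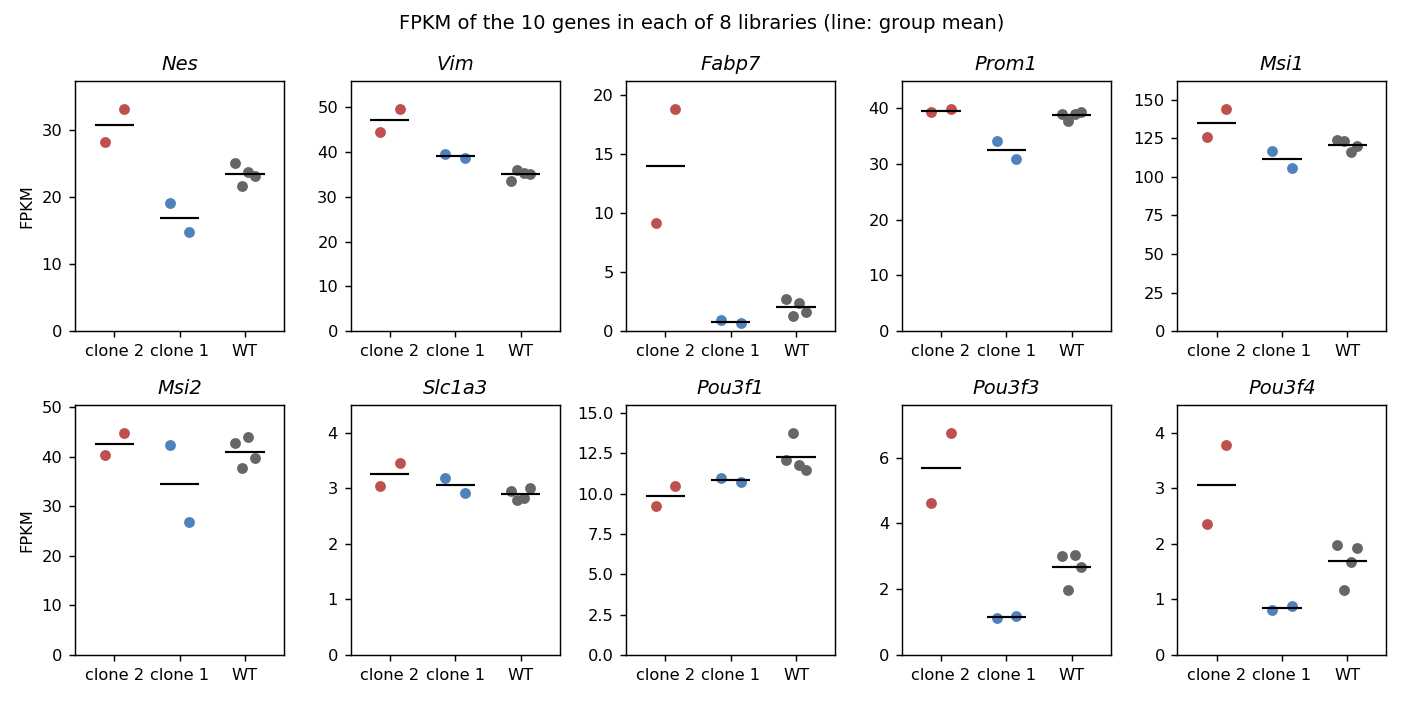
FPKM of each of the 10 genes (y axes, linear, from 0) in the libraries of clone 2 (n = 2), clone 1 (n = 2) and WT (n = 4); points are libraries and lines are group means. Fabp7, Pou3f3, Pou3f4 and Nes are above WT in both clone 2 libraries and below WT in both clone 1 libraries, whereas Pou3f1 is below WT in both clones.

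Across all 4 null libraries against WT, which asks what the lines without the enhancer share, 0 of the 10 genes passed limma's test over all genes, where 0.0551% of the 14521 genes did (8 genes; 0.00689% as higher and 0.0482% as lower). Vim and Pou3f1 had an unadjusted p under 0.05. They were also the 2 genes whose null and WT libraries did not overlap, which held for 4.26% of all genes: null was above WT for Vim, as for 1.03% of all genes, and below it for Pou3f1, as for 3.22%. The median log2 fold change of the 10 genes was 0.02, against -0.02 for all genes. The interval of the change was wide for genes such as Fabp7, Pou3f3 and Nes, whose clones lay on opposite sides of WT. The 95% interval was -1.20 to 2.73 for Fabp7, -0.98 to 1.06 for Pou3f3 and -0.56 to 0.49 for Nes on the log2 scale. It was narrow for Msi1, at -0.18 to 0.22. In the authors' deposited table the fold of Vim was 1.28 with p = 0.000202, which adjusted here over 28134 genes with reads gives 0.0286; 0.782% of those genes (220) pass in this way, and none of the other 9 genes does. The authors' deposited unadjusted p was 0.00723 for Pou3f1 and 0.0398 for Slc1a3.

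Each clone was then set against WT, and clone 2 against clone 1, in a fit of 3 groups. In clone 2, 4 genes rose (Fabp7, Pou3f3, Vim and Nes) and 1 fell (Pou3f1), where 7.06% of all genes rose and 6.96% fell (1025 and 1011 genes). In clone 1, 3 fell (Pou3f3, Nes and Prom1) and 0 rose, where 4.16% of all genes rose and 11.4% fell. The split of the clone 1 calls over all genes, 604 higher and 1662 lower, was 882 and 1060 after rescaling of the libraries. Between the clones, 7 were higher in clone 2 and 0 lower, where 39.9% of all genes passed, 24.9% as higher and 15.0% as lower. The clone comparisons share the WT libraries, so they are given side by side. The median log2 fold change of the 10 genes was 0.27 in clone 2 and -0.26 in clone 1, against 0.00 and -0.05 for all genes, and it was 0.30 for clone 2 against clone 1, with 0.05 for all genes. Without any overlap, clone 2 was above WT in 8 genes (all but Msi2 and Pou3f1) and below it in 1 (Pou3f1), where 47.4% of all genes did not overlap, 24.7% as higher and 22.7% as lower. Clone 1 was below WT in 6 (Nes, Fabp7, Prom1, Pou3f1, Pou3f3 and Pou3f4) and above it in 1 (Vim), where 41.3% of all genes did not overlap, 29.2% as lower and 12.1% as higher. Clone 2 was above clone 1 in 7 and below it in 1 (Pou3f1), where 67.9% did not overlap, 40.1% as higher and 27.8% as lower. In 5 of the 10 genes (Nes, Fabp7, Prom1, Pou3f3 and Pou3f4) every clone 2 library lay above every WT library and every WT library above every clone 1 library, an order that 14.2% of all genes had. In bulk RNA, fewer cells of a kind and less RNA per cell cannot be told apart.

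**Figure D2:**
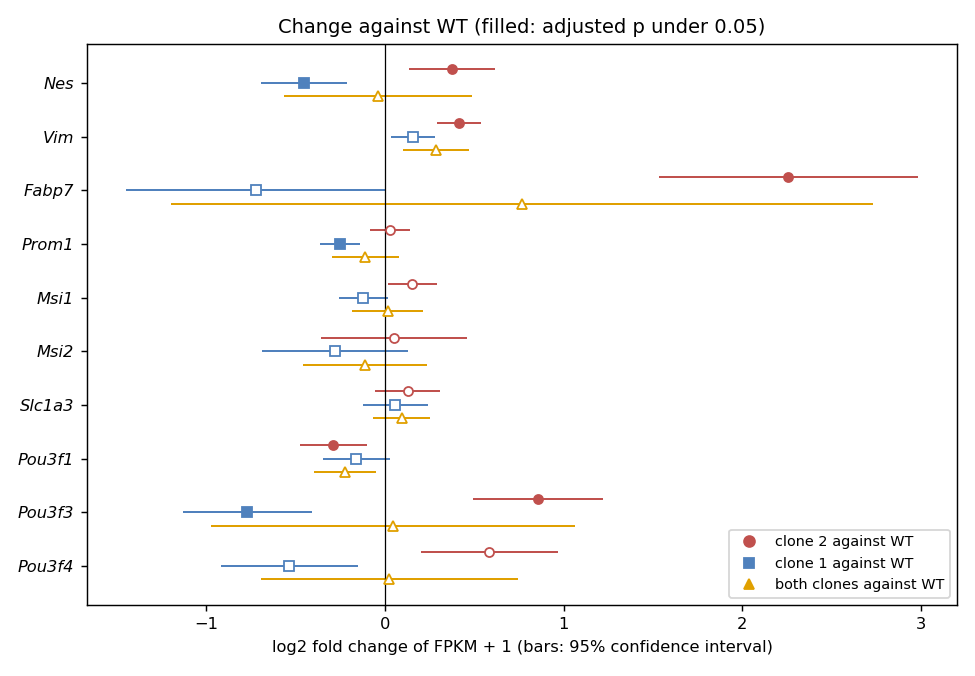
Log2 fold change of FPKM + 1 against WT (x axis) for each gene in clone 2, in clone 1 and in both clones together; bars are 95% confidence intervals from limma and filled symbols have an adjusted p under 0.05. The 2 clones lie on opposite sides of 0 for Fabp7, Pou3f3, Pou3f4 and Nes, and the intervals of both clones together are wide there.

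Nes, the type VI intermediate filament protein that names the neural stem cell state, was higher in clone 2 and lower in clone 1. It stood at 28.3 and 33.2 FPKM in clone 2, 19.1 and 14.8 FPKM in clone 1, and 25.1, 21.7, 23.8 and 23.1 FPKM in WT. No library of 1 line overlapped another line. Relative to WT, Nes was 1.31-fold in clone 2 (log2 fold change 0.38, SE 0.11, limma adjusted p = 0.0475) and 72.5% of WT in clone 1 (log2 fold change -0.45, SE 0.11, limma adjusted p = 0.0252). Clone 2 was 1.81-fold above clone 1 (log2 difference 0.83, limma adjusted p = 0.00139), and this held in every alternative run. Both calls against WT were lost with no filter on low values (adjusted p = 0.104 in clone 2 and 0.062 in clone 1). The clone 2 call was also lost without clone 2 replicate 2 (log2 fold change 0.27, adjusted p = 0.377) and without any 1 of the WT replicates, and the clone 1 call without clone 1 replicate 2 (log2 fold change -0.28, adjusted p = 0.156) and without WT replicate 1, 3 or 4.

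Vim, whose protein co-assembles with nestin, had all libraries of both clones above WT, and passed the test in clone 2. Its values were 44.6 and 49.7 FPKM in clone 2, 39.7 and 38.6 FPKM in clone 1, and 33.5, 36.0, 35.4 and 35.2 FPKM in WT. The lowest null library, clone 1 replicate 2, was still above the highest WT library. It rose 1.35-fold in clone 2 (log2 fold change 0.42, SE 0.05, limma adjusted p = 0.00464), and the call was lost without clone 2 replicate 2 (0.34, adjusted p = 0.0508). In clone 1 it was 1.12-fold and did not pass (log2 fold change 0.16, limma adjusted p = 0.0832), but it passed after rescaling of the libraries (0.20, adjusted p = 0.0393). Clone 2 was also above clone 1 (log2 difference 0.26, limma adjusted p = 0.0113; 0.18 and adjusted p = 0.0908 without clone 2 replicate 2). The ratio of Vim to Nes FPKM was 1.58 and 1.50 in clone 2, 2.08 and 2.61 in clone 1, and 1.34 to 1.66 in WT. Both clone 1 libraries had a higher ratio than any other library.

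Vim is also expressed in mesenchyme. Of the 8 markers fixed for neural crest and mesenchyme, Foxd3, Col1a1 and Col3a1 were below 1 FPKM in every library, and the 8 summed to 14.5 to 16.3 FPKM in clone 2, 14.1 to 15.1 FPKM in clone 1 and 14.9 to 16.4 FPKM in WT. The summed ranges of clone 1 and of clone 2 each overlapped that of WT. Of the 2 tested, in clone 1 Twist1 rose (log2 fold change 0.56, limma adjusted p = 0.0181) and Pdgfra fell (-0.65, adjusted p = 0.00319), and in clone 2 neither passed; their part in the level of Vim was not tested. Counts of calls in this and the further lists of related genes stand beside 7.06% of all genes higher and 6.96% lower in clone 2, and 4.16% higher and 11.4% lower in clone 1. Among 10 other intermediate filament genes tested, 0 rose and 1 fell in clone 2, and 2 rose and 3 fell in clone 1, with median log2 fold changes of -0.04 in clone 2 and -0.14 in clone 1 (0.00 and -0.05 over all genes). Synm, encoding synemin, which needs a partner such as vimentin to form filaments, averaged 1.91 ± 0.287 FPKM in clone 2 and 5.52 ± 1.28 FPKM in clone 1 (n = 2 each), and 3.49 ± 0.536 FPKM in WT (n = 4). It fell in clone 2 (log2 fold change -0.63, limma adjusted p = 0.0251) and rose in clone 1 (0.53, adjusted p = 0.038). The nuclear lamin genes Lmnb1 and Lmnb2 fell in clone 1 (log2 fold changes -0.20 and -0.27, limma adjusted p = 0.0189 and 0.0145).

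Fabp7, the brain fatty acid-binding protein of radial glia, separated the lines most. It stood at 9.18 and 18.8 FPKM in clone 2, 0.931 and 0.683 FPKM in clone 1, and 2.76, 1.30, 2.39 and 1.66 FPKM in WT. The 2 clone 2 libraries were both far above WT but also far apart from each other. Fabp7 was 6.90-fold higher in clone 2 than in WT (log2 fold change 2.26, SE 0.30, limma adjusted p = 0.00924), a call kept in all 11 alternatives. In clone 1 it was at 39.8% of WT and did not pass (log2 fold change -0.72, 95% interval -1.45 to 0.00, limma adjusted p = 0.156). Clone 2 was 17.4-fold above clone 1 (log2 difference 2.98, limma adjusted p = 0.00129), farther apart than 99.5% of the genes tested. The depth behind these values is small in WT: the authors' deposited mean read count was 154.87 in null and 41.86 in WT.

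The related fatty acid-binding protein genes Fabp5 and Fabp3 ran in opposite orders. Fabp5, far more abundant than Fabp7, stood at 115 ± 0.0134 FPKM in clone 2, 88.3 ± 0.553 FPKM in clone 1 (n = 2 each) and 108 ± 3.44 FPKM in WT (n = 4). It fell in clone 1 (log2 fold change -0.28, limma adjusted p = 0.00418) and did not pass in clone 2 (0.09, adjusted p = 0.138). Fabp3, named after its values were seen, averaged 8.33 ± 1.63 FPKM in clone 2, 28.5 ± 3.61 FPKM in clone 1 (n = 2 each) and 15.4 ± 3.999 FPKM in WT (n = 4). It rose in clone 1 (0.88, limma adjusted p = 0.0441), did not pass in clone 2 (-0.79, adjusted p = 0.0611) and was lower in clone 2 than in clone 1 (-1.67, adjusted p = 0.00337). Slc1a3, the glutamate transporter GLAST, was nearly flat. It stood at 3.04 and 3.46 FPKM in clone 2, 3.19 and 2.91 FPKM in clone 1, and 2.94, 2.78, 2.82 and 3.01 FPKM in WT. It passed in no comparison, with 95% intervals of -0.05 to 0.31 in clone 2, -0.12 to 0.24 in clone 1 and -0.14 to 0.28 between the clones on the log2 scale. Its relative Slc1a2, the transporter GLT-1 of mature astrocytes, averaged 0.963 ± 0.242 FPKM in clone 2 and 0.937 ± 0.149 FPKM in clone 1 (n = 2 each), and 1.21 ± 0.0297 FPKM in WT (n = 4). It did not pass either (limma adjusted p = 0.274 and 0.221 against WT). Still, all its null libraries (0.792 to 1.13 FPKM) lay below all WT libraries (1.19 to 1.25 FPKM), as for 3.22% of all genes. The authors' deposited p for Slc1a2 was 0.000761, which adjusted here gives 0.0833.

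A list of 23 other genes associated with radial glia, chosen with earlier results known, held 22 tested genes. In clone 2, 2 rose and 4 fell (median log2 fold change -0.11), and in clone 1, 1 rose and 7 fell (median -0.16). Between the clones 7 were higher in clone 2 and 4 lower, where 24.9% of all genes were higher and 15.0% lower. Their median log2 difference was -0.06. Ednrb, the endothelin receptor B gene, was ordered as Fabp7 was: it averaged 2.70 ± 0.241 FPKM in clone 2, 0.529 ± 0.0578 FPKM in clone 1 (n = 2 each) and 1.32 ± 0.231 FPKM in WT (n = 4), with log2 fold changes of 0.68 (limma adjusted p = 0.00996) and -0.60 (adjusted p = 0.0128). Cdh2, encoding the N-cadherin of neuroepithelial junctions, had a log2 fold change of 0.33 in clone 2 (limma adjusted p = 0.0464) and of -0.63 in clone 1 (adjusted p = 0.00611). Pax6, a transcription factor of forebrain radial glia, went the other way in clone 2, with 14.5 ± 4.78 FPKM there, 31.2 ± 1.32 FPKM in clone 1 (n = 2 each) and 38.6 ± 1.68 FPKM in WT (n = 4). Its log2 fold change was -1.39 in clone 2 (limma adjusted p = 0.005). The others of the list that fell in clone 2 are named after their values were seen. They were Sox9 (-0.42, limma adjusted p = 0.00701), Hopx (-0.60, adjusted p = 0.0303) and Mt3 (-0.36, adjusted p = 0.0417). Sox9 fell in clone 1 as well (-0.22, adjusted p = 0.0433).

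Prom1, encoding the apical membrane glycoprotein prominin-1 (CD133), was lower in clone 1. It stood at 39.3 and 39.9 FPKM in clone 2, 34.2 and 30.9 FPKM in clone 1, and 39.0, 37.8, 38.9 and 39.3 FPKM in WT. Clone 1 was at 83.9% of WT (log2 fold change -0.25, SE 0.05, limma adjusted p = 0.015), a call lost without clone 1 replicate 2 (-0.18, adjusted p = 0.0705). In clone 2 the 95% interval was -0.08 to 0.14 (limma adjusted p = 0.715). The difference between the clones passed (0.28, limma adjusted p = 0.00529) and was kept in all 11 alternatives. Of 13 tested genes of apical polarity and neuroepithelial structure, 2 rose and 0 fell in clone 2 (median log2 fold change 0.03), and 0 rose and 2 fell in clone 1 (median -0.12), which is near the share of all genes that fell there. Crb2, a Crumbs polarity gene, averaged 27.1 ± 0.569 FPKM in clone 2, 16.3 ± 0.305 FPKM in clone 1 (n = 2 each) and 23.2 ± 1.82 FPKM in WT (n = 4), and fell in clone 1 (log2 fold change -0.49, limma adjusted p = 0.00609). Llgl1, a basolateral polarity gene, also fell there (-0.21, adjusted p = 0.0161). Cd24a, a surface glycoprotein gene of immature neural cells, rose in clone 2 (0.44, limma adjusted p = 0.0109).

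The Musashi genes, which encode RNA-binding repressors of translation in progenitors, passed against WT in neither clone with all 8 libraries. Msi1 stood at 126 and 144 FPKM in clone 2, 117 and 106 FPKM in clone 1, and 124, 123, 116 and 120 FPKM in WT. It passed against WT in neither clone (limma adjusted p = 0.126 in clone 2 and 0.208 in clone 1), and only the difference between the clones passed (0.27, limma adjusted p = 0.0148). That call was lost without clone 2 replicate 2 (0.17, adjusted p = 0.106) and without clone 1 replicate 2 (0.21, adjusted p = 0.0925). Msi2 stood at 40.3 and 44.9 FPKM in clone 2, 42.3 and 26.8 FPKM in clone 1, and 42.8, 37.8, 43.9 and 39.7 FPKM in WT. The single low value belongs to clone 1 replicate 2, the library with the high non-polyadenylated RNA, and clone 1 replicate 1 lay within WT. Msi2 passed in no comparison with all 8 libraries. Its log2 fold change in clone 1 was -0.60 with replicate 2 as the only clone 1 library and 0.04 with replicate 1 alone, so that the value rests on 1 library.

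Msi1 and Prom1 lie on the Lhx5 chromosome, chromosome 5. Msi1 is at 115429599 to 115455698, Prom1 at 43993620 to 44102032 and Lhx5 at 120431699 to 120441223 (GRCm38). Of 16 other progenitor RNA-binding protein genes tested, 2 rose and 2 fell in clone 2, 0 rose and 5 fell in clone 1, and 10 were higher and 1 lower in clone 2 than in clone 1, where 24.9% of all genes were higher and 15.0% lower. Their median was 0.04 in clone 2 and -0.16 in clone 1 against WT, and 0.26 between the clones, on the log2 scale. Igf2bp3, an mRNA-binding protein gene of fetal cells, averaged 97.1 ± 5.41 FPKM in clone 2, 70.1 ± 4.30 FPKM in clone 1 (n = 2 each) and 85.6 ± 3.89 FPKM in WT (n = 4). It fell in clone 1 (log2 fold change -0.29, limma adjusted p = 0.0154), and its relative Igf2bp1 rose in clone 2 (0.24, adjusted p = 0.0307).

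The class III POU genes each consist of 1 exon in GENCODE M21. Pou3f1, known as Oct6, appears early in neural induction, and Pou3f3 (Brn1) and Pou3f4 (Brn4) act in forebrain progenitors and developing neurons. Pou3f1 lies on chromosome 4 (124656807 to 124660655), Pou3f3 on chromosome 1 (42695768 to 42703176) and Pou3f4 on chromosome X (110814280 to 110817207, all plus strand, GRCm38). Pou3f3 stood at 4.63 and 6.76 FPKM in clone 2, 1.11 and 1.17 FPKM in clone 1, and 3.02, 1.97, 3.05 and 2.67 FPKM in WT. The 3 lines did not overlap. It rose 2.13-fold in clone 2 (log2 fold change 0.86, SE 0.16, limma adjusted p = 0.0149) and fell to 42.7% of WT in clone 1 (-0.77, SE 0.16, limma adjusted p = 0.0168). Clone 2 was 4.98-fold above clone 1 (log2 difference 1.63, limma adjusted p = 0.000512). The clone 2 call was lost without clone 2 replicate 2 (0.63, adjusted p = 0.167), and the clone 1 call without either clone 1 replicate (adjusted p = 0.0559 and 0.0971), where the lone clone 1 library is taken to vary like the other groups. The difference between the clones was kept in all 11 alternatives.

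Pou3f4 had the same order at lower levels. It stood at 2.35 and 3.78 FPKM in clone 2, 0.812 and 0.874 FPKM in clone 1, and 1.97, 1.17, 1.68 and 1.93 FPKM in WT. The lines again did not overlap. Neither clone passed against WT, with log2 fold changes of 0.58 in clone 2 (limma adjusted p = 0.0512) and -0.53 in clone 1 (adjusted p = 0.0631), but clone 2 was 3.64-fold above clone 1 (log2 difference 1.12, limma adjusted p = 0.00275). The clone 2 change rested on its libraries: it was 0.33 (adjusted p = 0.433) without clone 2 replicate 2 and 0.84 (adjusted p = 0.0264, a call) without clone 2 replicate 1, where the lone clone 2 library is taken to vary like the other groups. With a pseudocount of 0.1, which shrinks low genes less, the change was 0.81 in clone 2 and did not pass (adjusted p = 0.0567), and it was -0.90 in clone 1 and passed (adjusted p = 0.0388), as it did without WT replicate 2 (-0.63, adjusted p = 0.0258) or without either clone 2 replicate (adjusted p = 0.0411 and 0.0418).

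Pou3f1 behaved otherwise. It stood at 9.25 and 10.5 FPKM in clone 2, 11.0 and 10.7 FPKM in clone 1, and 12.1, 13.8, 11.8 and 11.5 FPKM in WT. All 4 null libraries were below all WT libraries. It fell in clone 2 (log2 fold change -0.29, SE 0.08, limma adjusted p = 0.0499), a call lost in 9 of 11 alternatives, including each library left out and no filter on low values (adjusted p up to 0.234). In clone 1 it did not pass (-0.16, limma adjusted p = 0.212), nor did the clones differ beyond their spread (-0.13, 95% interval -0.34 to 0.09, adjusted p = 0.315).

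Pou3f2 (Brn2), the remaining class III gene and the closest relative outside the 10 genes, stood at 2.00 and 3.90 FPKM in clone 2, 0.721 and 0.688 FPKM in clone 1, and 2.19, 1.07, 1.87 and 1.79 FPKM in WT. Clone 2 was above clone 1 (log2 difference 1.17, limma adjusted p = 0.0077), and neither clone passed against WT (0.51, adjusted p = 0.158 in clone 2; -0.66, adjusted p = 0.0758 in clone 1). Pou3f2 lies on chromosome 4 (22482780 to 22488366), inside the stretch from Rab2a to Epha7 whose 46 tested coding genes had a median log2 fold change of -0.59 in clone 2. Of these 46, 45 had a negative change, and Pou3f2 was the 1 with a positive change. The median over all genes in clone 2 was 0.00. The stretch was taken with earlier results of these data known, so its counts describe it and test nothing. Together the class III genes summed to 18.2 and 25.0 FPKM in clone 2, 13.7 and 13.5 FPKM in clone 1, and 17.9 to 19.3 FPKM in WT. Pou3f1 made up 50.8% and 42.1% of that sum in clone 2, 80.7% and 79.7% in clone 1, and 62.8% to 76.5% in WT. These shares did not overlap between the lines, although WT replicate 2, at 76.5%, was close to clone 1. The difference in shares was not tested. In each clone the log2 fold change of Pou3f1 was smaller in size than those of the other class III genes. All null libraries were still below WT for Pou3f1. Among the 6 tested POU genes outside the 10, Pou5f1 (Oct4), the pluripotency factor, rose in clone 1 (log2 fold change 1.15, limma adjusted p = 0.0199) and averaged 12.6 ± 2.40 FPKM in clone 2, 50.5 ± 2.76 FPKM in clone 1 (n = 2 each) and 22.6 ± 5.53 FPKM in WT (n = 4). Pou4f1 (Brn3a), a sensory neuron factor, rose in clone 2 (0.53, limma adjusted p = 0.0366).

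**Figure D3:**
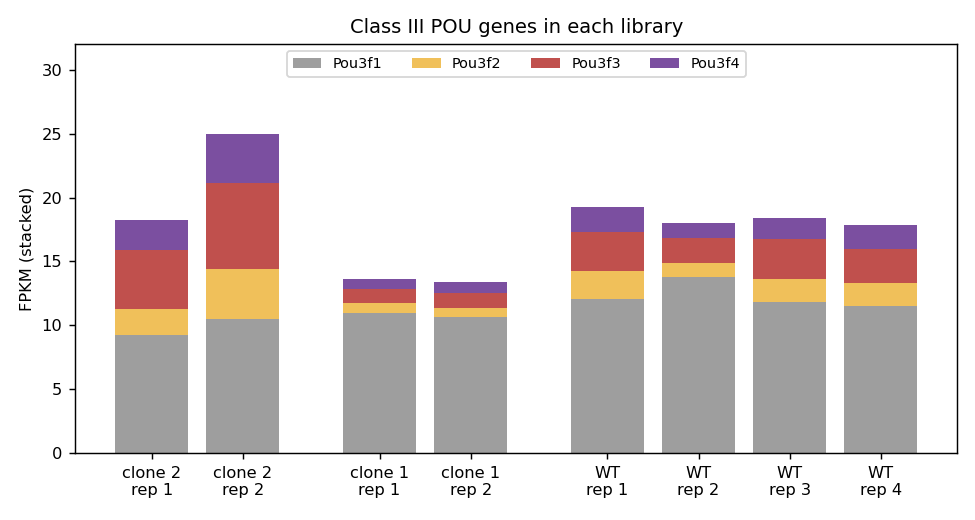
FPKM of the class III POU genes stacked in each library (y axis, linear, from 0), with clone 2 at the left, then clone 1, then WT. The Pou3f1 segment is between 9.25 and 13.8 FPKM in all 8 libraries, whereas the other segments together are at 8.98 and 14.4 FPKM in clone 2, 2.65 and 2.74 FPKM in clone 1 and 4.22 to 7.17 FPKM in WT.

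The promoters of Fabp7, Pou3f3 and Pou3f4 are printed because these 3 genes separated the lines most, and that of Nes because it moved in the same order by less. Each runs 5′ to 3′ on the strand of its gene, from 250 bases before to 50 after the RefSeq start (GRCm38.p6). Capitals mark the letters CCAAT or, on the other strand, ATTGG.
Fabp7 (chr10:57784673-57784972, plus strand): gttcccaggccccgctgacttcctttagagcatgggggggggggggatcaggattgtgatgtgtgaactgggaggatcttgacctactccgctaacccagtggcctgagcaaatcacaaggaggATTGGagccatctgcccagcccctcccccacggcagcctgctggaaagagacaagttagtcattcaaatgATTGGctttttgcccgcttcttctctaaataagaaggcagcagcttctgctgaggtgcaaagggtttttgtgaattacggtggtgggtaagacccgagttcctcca
Pou3f3 (chr1:42695518-42695817, plus strand): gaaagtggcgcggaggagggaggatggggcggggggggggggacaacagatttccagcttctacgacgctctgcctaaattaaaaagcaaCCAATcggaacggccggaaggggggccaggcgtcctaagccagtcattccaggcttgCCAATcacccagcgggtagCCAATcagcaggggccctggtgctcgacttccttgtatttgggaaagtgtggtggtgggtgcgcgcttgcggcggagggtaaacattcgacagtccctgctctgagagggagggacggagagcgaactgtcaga
Pou3f4 (chrX:110814129-110814428, plus strand): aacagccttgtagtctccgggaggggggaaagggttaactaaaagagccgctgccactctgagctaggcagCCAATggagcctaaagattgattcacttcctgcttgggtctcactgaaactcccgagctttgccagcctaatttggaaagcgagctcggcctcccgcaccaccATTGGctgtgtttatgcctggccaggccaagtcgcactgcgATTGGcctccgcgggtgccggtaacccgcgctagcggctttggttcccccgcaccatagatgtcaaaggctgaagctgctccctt
Nes (chr3:87970843-87971142, plus strand): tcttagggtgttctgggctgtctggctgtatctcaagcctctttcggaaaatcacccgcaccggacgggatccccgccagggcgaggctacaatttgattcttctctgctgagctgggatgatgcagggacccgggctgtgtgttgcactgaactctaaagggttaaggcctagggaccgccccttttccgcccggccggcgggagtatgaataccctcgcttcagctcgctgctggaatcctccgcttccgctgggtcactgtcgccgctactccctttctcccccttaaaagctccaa

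The CCAAT letters occur 2 times in the Fabp7 promoter, 3 times in that of Pou3f3, 3 times in that of Pou3f4 and 0 times in that of Nes, on both strands together. They also occur 3 times in the promoter of Slc1a3, which passed in no comparison, 2 times in that of Vim, 1 time in each of the 3 Msi2 windows and 1 time in 1 of the 2 Prom1 windows. Of 32817 RefSeq promoters of this length, 37.4% hold the letters at least once and 11.7% at least 2 times. The octamer that POU factors bind, ATGCAAAT, was in no window of the 8 matched genes on either strand and in 1.74% of all promoters. The homeodomain letters TAATTA, searched for since Lhx5 encodes a homeodomain protein, were in none of the 4, in the Slc1a3 window 1 time and in 5.30% of all promoters. The TATA letters TATAAA were in none of the 4, in the Vim and Slc1a3 windows 1 time each and in 13.6% of all promoters. RefSeq windows matched 8 of the 10 genes; Msi1 and Pou3f1 are named only.

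The libraries of 1 line also differed among themselves. Clone 2 replicate 2 was above clone 2 replicate 1 in all 10 genes, where 48.0% of all genes tested were. Clone 1 replicate 2 was below clone 1 replicate 1 in 8 of the 10, near the 70.0% of all genes that were. Within WT, replicate 2 was the lowest library for 7 of the 10 (Nes, Fabp7, Prom1, Msi2, Slc1a3, Pou3f3 and Pou3f4), where 26.8% of all genes had their lowest WT value there, and the highest for Pou3f1 and Vim. On the log2 scale, WT replicate 2 was below the WT mean by 0.37 for Fabp7, 0.30 for Pou3f3 and 0.30 for Pou3f4. Fabp7, Pou3f3 and Pou3f4, which separated the clones most, were thus also spread among the WT cultures.

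**Figure D4:**
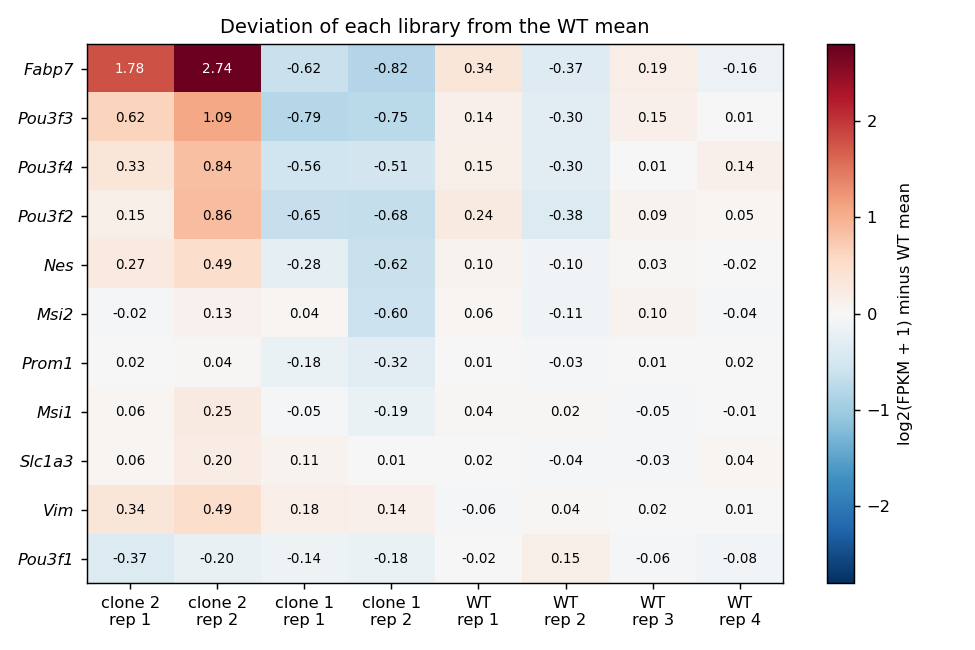
Log2(FPKM + 1) of each library minus the WT mean for the 10 genes and Pou3f2 (rows), with clone 2, clone 1 and WT libraries in columns; red is above and blue below the WT mean. Fabp7 reaches 1.78 and 2.74 in clone 2, and WT replicate 2 is below the WT mean for Fabp7, Pou3f3, Pou3f4, Pou3f2 and Nes.

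For each gene past the threshold in any comparison, the gene most like it was taken by the Euclidean distance between their 8 centred log2(FPKM + 1) values, a description over 8 libraries that share their lines. Pou3f3 was closest to Fam189a2, at a distance of 0.105, with 1.70 to a flat profile. Fam189a2 stood at 4.52 and 6.72 FPKM in clone 2, 1.07 and 1.18 FPKM in clone 1, and 2.11 to 3.25 FPKM in WT. Fabp7 was closest to Etv5, an ETS transcription factor gene, at 0.531 (3.29 to a flat profile), with 7.93 and 14.7 FPKM in clone 2, 1.09 and 0.807 FPKM in clone 1, and 0.986 to 2.83 FPKM in WT. Nes was closest to Celf2, an RNA-binding protein gene, at 0.116 (0.891 to a flat profile). Pou3f4 was closest to Igfbp4, an insulin-like growth factor binding protein gene, at 0.239 (1.23 to a flat profile). The remaining nearest genes were Lrp10 for Vim, Pot1b for Prom1, Wdr41 for Msi1 and Lppr3 for Pou3f1, at 0.047 to 0.149. Those 4 profiles were themselves nearly flat, at 0.331 to 0.500.

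Markers of other cell types are given beside these results for the lists as a whole. For comparison, 7.06% of all genes rose and 6.96% fell in clone 2. The shares in clone 1 were 4.16% and 11.4%. Of 6 pluripotency markers, 5 were tested: 5 rose in clone 1 and 2 fell in clone 2. In clone 1, Nanog had a log2 fold change of 0.77 (limma adjusted p = 0.0162), Dppa4 of 1.02 (adjusted p = 0.0043) and Dnmt3b of 0.54 (adjusted p = 0.00375). Of 5 surface epithelium markers, 3 rose in clone 1 (Cdh1, Epcam and Cldn6) and 0 passed in clone 2, and the 5 summed to 29.0 to 41.4 FPKM in clone 2, 70.1 to 81.2 FPKM in clone 1 and 35.6 to 52.2 FPKM in WT. Of 5 tested neuronal markers, 2 fell in clone 2 (Stmn2 and Elavl3) and 0 passed in clone 1, and those in the table summed to 31.8 to 35.6 FPKM in clone 2, 46.4 to 50.0 FPKM in clone 1 and 43.6 to 51.9 FPKM in WT. The 6 astrocyte markers summed to 7.47 to 14.3 FPKM in clone 2, 38.1 to 42.6 FPKM in clone 1 and 22.0 to 35.5 FPKM in WT, most of it Aldoc, a glycolytic enzyme gene, at 10.6 and 4.82 FPKM in clone 2, 35.5 and 31.9 FPKM in clone 1 and 16.9 to 29.4 FPKM in WT. Their 4 tested members gave 2 falls in clone 2 (Aqp4 and Aldh1l1) and 1 rise in clone 1 (Aldh1l1). The part of these cell types in the changes of the 10 genes was not tested.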

How the data were processed

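Poly(A) RNA libraries were made with the TruSeq v2 kit, per the labels' protocols. Of tools, the submitters' processing notes list Cufflinks, DESeq2, FastQC, SAMtools and TopHat2, and of genome builds mm10 and GRCm38; how each was used is not stated there. Per the file headers, the deposited values are FPKM for each library. The deposited table also gives a mean read count per genotype (a signal whose scaling is not stated), a fold as the ratio of those means, and a p-value of a test that no source used here names. Strand use is not stated; antisense exons overlapping Prom1 and Pou3f1 were at most 0.964 and 0 FPKM.

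Null columns were assigned to their clone, WT columns to their sample. No column of per-sample values was unmapped. Counts and depth per library were not analysed here, so depth is unknown; the limma test replaced a count test. Limma 3.58.1 in R 4.3.3, with trend and robust moderation, was run on log2(FPKM + 1) of genes with a mean of at least 1 FPKM, with Benjamini-Hochberg adjustment over all of them and a threshold of 0.05. Fold changes on this scale understate changes of low genes, and plain folds are ratios of mean FPKM. Null against WT used 2 groups of 4, the clone comparisons 3 groups sharing 1 spread. The labels call the samples biological replicates without naming what was separate, so p-values measure the spread between libraries and not between lines. The procedure was also run on simulated data with the same changes in both clones, so that run does not cover lines that differ from each other. Alternatives were a pseudocount of 0.1, no filter, median-ratio rescaling, each library left out, the clone mean in the 3-group fit, and correlated lines. By rule the 10 genes, Pou3f2, Slc1a2 and Lhx5 are named, with up to 3 genes of each other list past the threshold, by smallest adjusted p in any comparison. The most alike genes were taken by distance, and a gene 2 lists hold is named for either. The members, lists, markers and the chromosome 4 stretch were chosen with earlier results of these data known. Coordinates are from GENCODE M21 (GRCm38) and promoters from RefSeq (GRCm38.p6).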

Additional observations from a re-analysis of the deposited data

Results flagged for a closer look

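The changes against WT differed between the clones, by limma's test of the difference (clone 2 minus clone 1, log2 scale, adjusted p under 0.05), for 7 of the 10 genes: by 2.98 for Fabp7, 1.63 for Pou3f3, 1.12 for Pou3f4, 0.83 for Nes, 0.28 for Prom1, 0.27 for Msi1 and 0.26 for Vim. The same held for 39.9% of all genes. No library of the 10 genes stood apart from the other 3 of its genotype by Dixon's criterion at 95%, in null or in WT. The 4 null libraries are 2 of each clone, so for genes whose clones lie apart the criterion could hardly be met. It also sets no library against the other of its own clone, such as Msi2 in clone 1, at 42.3 and 26.8 FPKM. No conclusion on single null libraries is drawn from it.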

How the results depend on the processing

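Depth per library is unknown and each clone has 2 libraries, so changes under the intervals given could not be detected. Among all genes, limma called 8 in null against WT, 5 after rescaling, 106 with the clone mean in the 3-group fit and 3 with correlated lines, and 3 to 8 with a library left out. Of the 10 genes 0 were called there, and 1 (Vim, adjusted p = 0.0296) with the clone mean in the 3-group fit. That fit leaves the difference between the clones out of its spread. With correlated lines 0 of the 10 genes were called. In clone 1 the count over all genes was 2266, 1506 without a filter and 438 to 3091 with a library left out; 26.7% of the calls were higher, and 45.4% after rescaling. It was 2036 in clone 2, 1160 without a filter and 172 to 2425 with a library left out, and 5794 between the clones, with 3099 to 5904. With a library left out, 0 to 4 of the 10 genes were called in clone 1 (0 without clone 1 replicate 2), 1 to 6 in clone 2 (Fabp7 alone without clone 2 replicate 2; 3 without a filter) and 5 to 8 between the clones. Uncalled changes near 0 turned sign in null against WT: with a pseudocount of 0.1 Pou3f3 was at -0.042 and Pou3f4 at -0.043, and with a library left out Nes ran from -0.212 to 0.159, Msi1 from -0.062 to 0.086, Msi2 from -0.193 to 0.049, Pou3f3 from -0.304 to 0.322 and Pou3f4 from -0.246 to 0.22. So did Msi2 in clone 1 (-0.597 to 0.044) and clone 2 (-0.024 to 0.128), and Slc1a3 between the clones (-0.002 to 0.14). Of 460 values of single genes under an alternative, 406 kept direction and side of the threshold, 28 lost a call, 10 gained one and 16 turned sign. The cause was not tested. Several alternatives, such as no filter or a library left out of a line not compared, could not move the log2 change. They could alter only its adjusted p, so the count that kept direction overstates stability. The same applies where a call is said to be kept in every alternative. No paired analysis was possible because columns of the null libraries restart their numbers in each clone, so the numbers in the titles cannot be matched to them.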
